A study of Mus musculus with 12 samples.

Results

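Pou5f1 (which encodes Oct4), Sox2, Nanog, Sall4 and Utf1 were followed across 12 RNA-seq libraries of mouse embryonic stem (ES) cells. They are the 5 genes with those symbols among the 32245 rows of the FPKM table, and each was matched by its Ensembl ID to 1 of the 32285 rows of the count table. All 5 passed the filter on low counts that left 18693 genes for testing. All samples are labelled as E14Tg2a.IV, a feeder-independent ES cell line, in 3 genotypes: a Smad4 knockout (S4KO), a double knockout of Smad2 and Smad3 (S23DKO) and wild type (WT). Each genotype was sampled at day 4, as embryoid bodies formed after removal of LIF, and at day 0, as undifferentiated cells, with 2 libraries in each of the 6 groups. LIF is the cytokine that holds mouse ES cells undifferentiated in culture, and embryoid bodies are the aggregates in which they differentiate. The labels do not say how many clones each knockout represents or whether the 2 replicates were separate cultures. The p-values weigh differences against the spread between replicates, estimated over all 6 groups together, and that spread may be technical.

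Oct4 is a POU-domain protein and Sox2 an HMG-box protein that bind DNA side by side at composite sites in enhancers and promoters of ES cells, including their own. Nanog, a homeodomain protein, is a target of that pair and sustains self-renewal, Sall4 is a zinc-finger protein that binds with them, and Utf1 is a chromatin-associated factor whose enhancer is a classical Oct4 and Sox2 target. Receptors for activin, Nodal and TGF-beta act through Smad2 and Smad3, which bind Smad4, a partner shared with the BMP-responsive Smads. In mouse ES cells Oct4 is known to be needed at a set level: too little is followed by trophectoderm differentiation.

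On build mm10, with the GENCODE M21 annotation, Pou5f1 (ENSMUSG00000024406) spans chr17:35506018-35510772 on the plus strand and Sox2 (ENSMUSG00000074637), a gene of 1 exon, spans chr3:34650405-34652461 on the plus strand. Nanog (ENSMUSG00000012396) lies at chr6:122707489-122714633 on the plus strand, Sall4 (ENSMUSG00000027547) at chr2:168748332-168767943 on the minus strand and Utf1 (ENSMUSG00000047751) at chr7:139943789-139945112 on the plus strand. The exons of Pou5f1 share 317 bases with the antisense gene Gm19553 and those of Sall4 share 526 bases with Gm14261. How reads were assigned to strands was not given in the sources used here, but group means of Gm19553 were at most 6.68 CPM and those of Gm14261 at most 0.479 CPM. Sox2 sits inside the long transcript Sox2ot without exon overlap, and Nanog has pseudogenes with which its reads could be confused.

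RefSeq promoter windows (build GRCm38.p6) were at hand for 4 of the 5 genes, and the 250 bases before the RefSeq start are shown because Oct4 and Sox2 are known to act on these genes' own regulatory sequences. Sall4 is named only. Capitals mark matches to the Oct-Sox composite TTTGCATNACAATG, which has the letters and spacing of the known Nanog element, or to its parts ATGCAAA (octamer) and ACAATG (Sox), searched on both strands.
Nanog, chr6:122707239-122707488, plus strand: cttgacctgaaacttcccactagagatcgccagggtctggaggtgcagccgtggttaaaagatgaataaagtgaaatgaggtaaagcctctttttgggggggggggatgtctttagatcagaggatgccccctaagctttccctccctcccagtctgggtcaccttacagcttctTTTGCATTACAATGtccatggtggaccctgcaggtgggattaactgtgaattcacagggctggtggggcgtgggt
Sox2, chr3:34649745-34649994, plus strand: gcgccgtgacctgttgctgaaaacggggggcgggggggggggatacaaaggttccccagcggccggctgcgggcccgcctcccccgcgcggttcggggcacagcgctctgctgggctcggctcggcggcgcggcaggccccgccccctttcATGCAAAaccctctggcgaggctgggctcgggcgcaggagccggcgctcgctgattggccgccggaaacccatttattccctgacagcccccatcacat
Pou5f1, chr17:35505782-35506031, plus strand: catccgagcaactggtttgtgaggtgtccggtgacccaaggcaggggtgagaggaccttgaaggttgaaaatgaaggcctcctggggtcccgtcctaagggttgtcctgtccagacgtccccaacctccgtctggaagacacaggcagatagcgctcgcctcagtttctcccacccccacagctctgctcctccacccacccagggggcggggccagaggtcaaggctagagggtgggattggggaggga
Utf1, chr7:139943606-139943855, plus strand: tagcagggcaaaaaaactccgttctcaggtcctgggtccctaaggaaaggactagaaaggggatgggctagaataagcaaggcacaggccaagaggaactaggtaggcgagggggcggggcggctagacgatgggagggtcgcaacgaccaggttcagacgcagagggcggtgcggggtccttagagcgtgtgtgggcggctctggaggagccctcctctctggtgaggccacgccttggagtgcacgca

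The composite begins 75 bases before the Nanog start and overlaps both parts. Of 32851 RefSeq windows of 300 bases, 2 held it (0.00609%), and both are overlapping windows of Nanog that hold the same site. The letters searched are those of the known Nanog element, so a match at Nanog was given in advance. The Sox2 window held the octamer part alone, 99 bases before the start, a match found in 4.63% of windows, while the Sox part was found in 12.6%. The Pou5f1 and Utf1 windows shown held neither part, and a second RefSeq window of Pou5f1 held the Sox part. The GC box GGGCGG, found in 35.7% of windows on either strand, occurred 4 times before Utf1, where 2 copies overlap, 2 times before Sox2 and 1 time before Pou5f1. The Smad box CAGAC, in 49.6% of windows, occurred 2 times each before Nanog and Pou5f1, 1 time before Utf1 and not in the Sox2 window. These are matches of letters in these windows and say nothing about binding.

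Depth was 31566376 to 55806858 counts per library, so counting error is small beside the spread between replicates for all 5 genes. CPM below are counts scaled to library size by the TMM method, and FPKM, which divides by transcript length, is used wherever genes are compared with each other. Some libraries stood apart. In WT day 0, short genes were raised against long ones by 1.23 and 0.92 on the log2 scale, against -0.59 to 0.30 in the other groups, and ribosomal-protein genes took 13.8% and 10.1% of counts, against 4.72% to 7.30% elsewhere. S23DKO day 0 replicate 2 had 6.74% mitochondrial counts, against 1.87% to 3.93% in the other libraries. Hprt, which the E14Tg2a line is known to lack, averaged 170 ± 1.29 CPM in S4KO at day 4 and 208 ± 6.11 CPM at day 0 (SD, n = 2), against group means of at most 0.589 CPM in S23DKO and WT. This goes against the line label of the S4KO libraries, and differences between S4KO and the others cannot be told apart from other differences between the lines. Smad2 and Smad3 transcripts remained in S23DKO, and Smad4 transcripts in S4KO, so whole-gene counts do not check the knockout labels. Against WT in S23DKO, the log2 fold change of Smad2 was -0.80 at day 4 and 0.33 at day 0. That of Smad3 was -0.70 and 0.63, and none of these passed in edgeR. Smad4 in S4KO was 0.03 at day 4 and 0.82 at day 0, where it passed as higher (edgeR, adjusted p = 0.0187). In bulk RNA, fewer cells of a type and less RNA per cell cannot be told apart.

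By FPKM, Pou5f1 was the highest of the 5 genes in all 12 libraries, and ranked between 66 and 567 among all rows of the table. Sall4 was the lowest in 11 of the 12, the exception being WT day 4 replicate 1, where Utf1 was lowest. Nanog ranked above Sox2 in both libraries of S4KO day 0, S23DKO day 0 and WT day 4, and below it in both libraries of S4KO day 4 and WT day 0, while the 2 S23DKO day 4 libraries differed in this order. In replicate 1 the 2 genes were nearly level in S4KO day 4, WT day 0 and S23DKO day 4. The ratio of Nanog to Sox2 there was 0.995, 0.993 and 0.976.

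**Figure D1:**
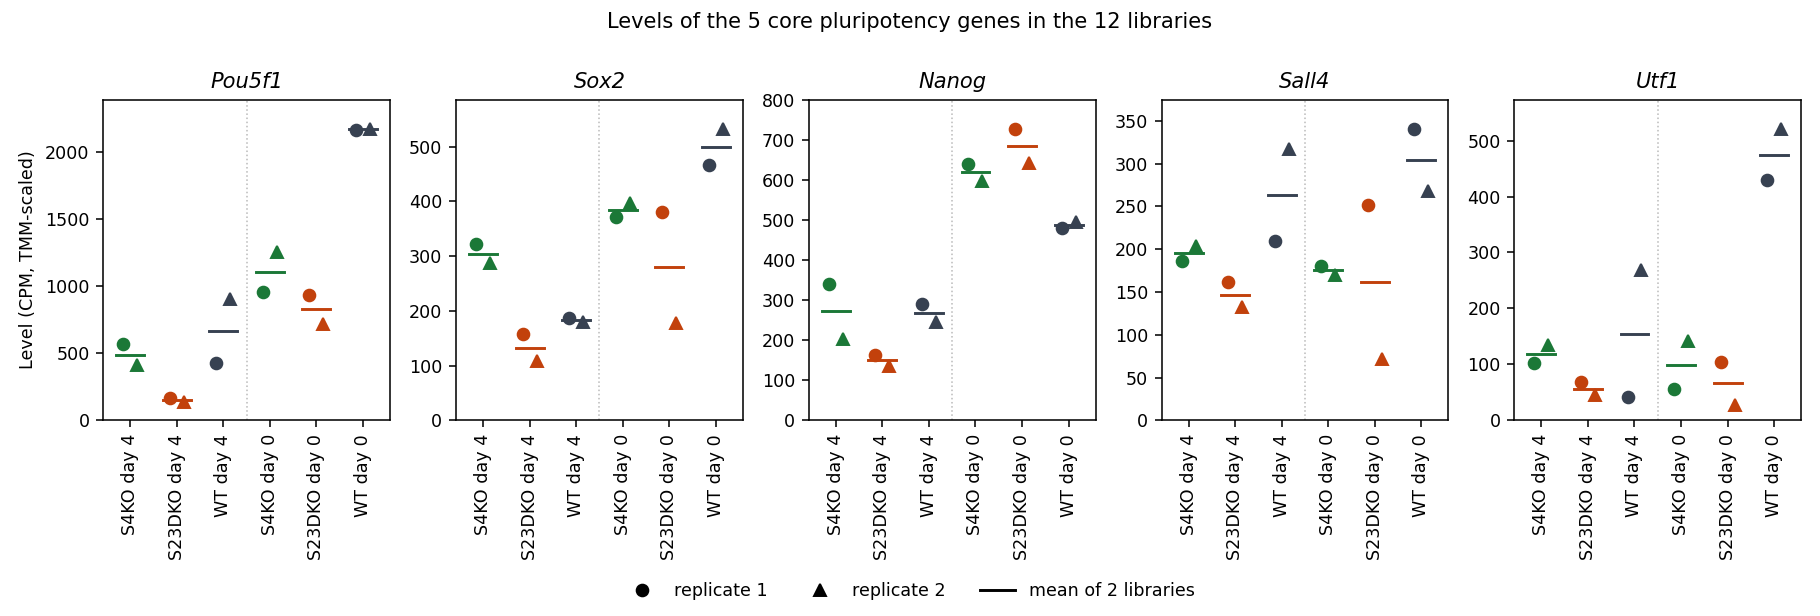
Level of each gene in CPM (linear axis from 0, one panel per gene) in the 12 libraries, grouped by genotype and day. Circles and triangles are replicates 1 and 2 and lines are means of 2 libraries. Pou5f1 was lowest in S23DKO day 4 (169 and 139.8 CPM), and Utf1 in WT day 4 differed 6.57-fold between replicates.

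Pou5f1, the POU-factor gene, was lowest in S23DKO day 4 and highest in WT day 0. At day 4 it had 569 and 408 CPM in S4KO, 169 and 139.8 CPM in S23DKO, and 430.3 and 906 CPM in WT. At day 0 it had 958 and 1256 CPM in S4KO, 935 and 719 CPM in S23DKO, and 2164 and 2169.95 CPM in WT. The 2 S23DKO day 4 libraries lay below all other libraries and the 2 WT day 0 libraries above all others. Between these ends the groups ran from S4KO day 0 through S23DKO day 0 and WT day 4 to S4KO day 4, and the neighbours S23DKO day 0 with WT day 4, and WT day 4 with S4KO day 4, overlapped. In FPKM, S4KO day 0 overlapped S23DKO day 0 as well.

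In S23DKO at day 4, Pou5f1 was 4.33-fold lower than in WT, a log2 fold change of -2.11 ± 0.33 (SE, edgeR quasi-likelihood test, adjusted p = 0.00224). It passed the test under all 16 alternatives tried, with log2 fold changes of -2.48 to -1.53. The same gene was lower in S23DKO than in WT at day 0, by -1.39 ± 0.33 (adjusted p = 0.00983), and did not pass once either WT day 0 replicate 1 or S23DKO day 0 replicate 2 was left out (adjusted p = 0.0643 and 0.0669). With offsets that remove each library's trend with length and GC content, the day 0 difference was -0.87 ± 0.19 (adjusted p = 0.00663). In S4KO neither difference from WT passed in edgeR, at -0.45 ± 0.32 (adjusted p = 0.607) at day 4 and -0.97 ± 0.32 (adjusted p = 0.0560) at day 0, the second being -0.38 ± 0.19 with the offsets (adjusted p = 0.183). S4KO day 4 exceeded S23DKO day 4 by 1.66 ± 0.33 (adjusted p = 0.00835), a call that leaving out S23DKO day 4 replicate 2 or S4KO day 4 replicate 1 ended (adjusted p = 0.0822 and 0.0513).

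Over the 4 days Pou5f1 fell in all 3 genotypes. The log2 fold change of day 4 over day 0 was -1.18 ± 0.32 in S4KO (adjusted p = 0.0444), -2.42 ± 0.34 in S23DKO (adjusted p = 0.00561) and -1.70 ± 0.33 in WT (adjusted p = 0.00225), which correspond to 2.27-, 5.36- and 3.24-fold lower levels. The S4KO call was the least firm: it was lost under 6 of 16 alternatives, among them leaving out S4KO day 4 replicate 2 or either S4KO day 0 library (adjusted p = 0.0512 to 0.300). The S23DKO call was lost without S23DKO day 4 replicate 2 (adjusted p = 0.0743), and the WT call under none of 16 alternatives, among them the offsets, with which it was -1.07 ± 0.19 (adjusted p = 0.00142). The genotype effect of S23DKO at day 4 minus that at day 0 was -0.72 ± 0.45 and did not pass (adjusted p = 0.308), but with the length and GC offsets it was -1.51 ± 0.27 and passed (adjusted p = 0.0142).

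Sox2, the HMG-box partner of Oct4, differed most between days in WT and between the knockouts at day 4. At day 4 it had 323 and 287 CPM in S4KO, 157 and 108 CPM in S23DKO, and 187 and 179 CPM in WT. The day 0 values were 371 and 397 CPM in S4KO, 381 and 178 CPM in S23DKO, and 466 and 533 CPM in WT. Both S4KO libraries were above both WT libraries at day 4 and, in CPM, below them at day 0. In FPKM the day 0 groups overlapped, with 174 and 192 in S4KO and 188 and 233 in WT, and with the length and GC offsets the day 0 difference of S4KO from WT was -0.15 ± 0.33 (adjusted p = 0.799). The S23DKO day 0 replicates differed 2.14-fold, the lower being replicate 2, so this group overlapped both S4KO groups, and its lower library lay just under both WT day 4 libraries.

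Sox2 fell over the 4 days in WT (log2 fold change -1.45 ± 0.31, edgeR, adjusted p = 0.00399), under each of the 16 alternatives. In S23DKO the change was -1.08 ± 0.31 and did not pass (adjusted p = 0.0601), and in S4KO it was -0.33 ± 0.31 (adjusted p = 0.534). The S23DKO change passed under 6 of 16 alternatives: in DESeq2 (adjusted p = 0.0109), without the low-count filter (0.0115), with a minimum of 1 CPM (0.0421), with the offsets (0.0478), with block and offsets (0.0439) and without S23DKO day 0 replicate 2 (-1.54, adjusted p = 0.0119). S4KO day 4 exceeded S23DKO day 4 by 1.20 ± 0.31 (adjusted p = 0.0283), a call lost when any 1 of these 4 libraries was left out (adjusted p = 0.0693 to 0.246). In edgeR no knockout differed from WT past the threshold: at day 4 the values were 0.73 ± 0.31 in S4KO (adjusted p = 0.301) and -0.47 ± 0.31 in S23DKO (adjusted p = 0.341), and at day 0 they were -0.38 ± 0.31 (adjusted p = 0.415) and -0.84 ± 0.31 (adjusted p = 0.0596). Without S23DKO day 0 replicate 2 the last value was -0.37 (adjusted p = 0.339), and without replicate 1 it was -1.48 (adjusted p = 0.00622). It also passed in DESeq2, without the low-count filter and with the replicate block (adjusted p = 0.0377, 0.0288 and 0.0428).

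Nanog, the homeodomain factor, was the 1 gene of the 5 whose day 0 level was highest in the knockouts, and the 1 whose S23DKO effect passed the test of a difference between the days without offsets. At day 4 it had 342 and 205 CPM in S4KO, 164 and 137 CPM in S23DKO, and 290.0 and 245 CPM in WT. In day 0 cells Nanog had 641 and 599 CPM in S4KO, 729 and 644 CPM in S23DKO, and 479.7 and 495 CPM in WT. At day 0 both knockouts lay above WT without overlap, and at day 4 both S23DKO libraries lay below all others while S4KO and WT overlapped. In CPM and FPKM alike the groups ordered S23DKO day 0, S4KO day 0, WT day 0, S4KO day 4, WT day 4 and S23DKO day 4 from high to low, with an overlap at S4KO day 4 and WT day 4 alone.

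In S23DKO at day 4 Nanog was 1.78-fold lower than in WT (log2 fold change -0.83 ± 0.24, adjusted p = 0.0396). This call was lost under 9 of 16 alternatives, among them leaving out WT day 4 replicate 1 or either S23DKO day 4 library (adjusted p = 0.142 to 0.267). At day 0 the difference from WT was 0.49 ± 0.24 in S23DKO (adjusted p = 0.139) and 0.35 ± 0.24 in S4KO (adjusted p = 0.333), and neither passed. The effect of S23DKO at day 4 minus that at day 0 was -1.32 ± 0.34 and passed (adjusted p = 0.0463), with values of -1.51 to -1.12 under 20 alternatives. Leaving out any 1 of the 8 WT and S23DKO libraries other than WT day 4 replicate 2 ended that call (adjusted p = 0.0693 to 0.192). The matching value for S4KO was -0.32 ± 0.34 (adjusted p = 0.622).

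Nanog fell over the 4 days in all 3 genotypes. The log2 difference of day 4 from day 0 was -1.18 ± 0.24 in S4KO (adjusted p = 0.0146), -2.19 ± 0.25 in S23DKO (adjusted p = 0.00273) and -0.87 ± 0.24 in WT (adjusted p = 0.0142). The largest of these drops, in S23DKO, was 4.56-fold and was lost without S23DKO day 4 replicate 2 (adjusted p = 0.0552). The S4KO call was lost without S4KO day 0 replicate 1 or S4KO day 4 replicate 2 (adjusted p = 0.0502 and 0.153), and the WT call without either WT day 0 library or WT day 4 replicate 2 (adjusted p = 0.0621 to 0.0804). The drop in S4KO minus the drop in S23DKO was 1.01 ± 0.34 and did not pass (adjusted p = 0.440). Nanog in S4KO day 4 exceeded S23DKO day 4 by 0.86 ± 0.24 (adjusted p = 0.0396), which 9 of 16 alternatives did not keep, among them leaving out S4KO day 4 replicate 1 or either S23DKO day 4 library (adjusted p = 0.159 to 0.406).

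Sall4, the zinc-finger gene, passed in no comparison of the edgeR fit to all 12 libraries. At day 4 it had 186 and 204 CPM in S4KO, 161 and 132 CPM in S23DKO, and 210.1 and 316 CPM in WT. At day 0 it had 181 and 170.0 CPM in S4KO, 252 and 71.5 CPM in S23DKO, and 341 and 268 CPM in WT. In CPM both knockouts lay below WT without overlap on each day, whereas in FPKM S23DKO replicate 1 (50.1) exceeded WT replicate 2 (48.0) at day 0. The log2 differences were -0.43 ± 0.43 in S4KO (adjusted p = 0.752) and -0.84 ± 0.44 in S23DKO (adjusted p = 0.221) at day 4, and -0.79 ± 0.44 (adjusted p = 0.221) and -0.91 ± 0.44 (adjusted p = 0.133) at day 0. The S23DKO day 0 replicates differed 3.52-fold, and the day 0 value for S23DKO was -0.26 without replicate 2 (adjusted p = 0.548) and -2.08 without replicate 1, where it passed (adjusted p = 0.00295). It also passed without the low-count filter (-0.90, adjusted p = 0.0470), and the S4KO value passed with the 2 groups fitted alone (-0.77, adjusted p = 0.0449). S4KO against S23DKO at day 0 passed without S23DKO replicate 1 (1.28, adjusted p = 0.0281). Day 4 against day 0 gave values between -0.21 and 0.15, none of which passed.

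Utf1, the chromatin-associated factor, had the widest spread between replicates. At day 4 it had 102 and 135 CPM in S4KO, 68.8 and 44.6 CPM in S23DKO, and 40.9 and 268 CPM in WT. Its day 0 levels were 56.6 and 142 CPM in S4KO, 104 and 27.6 CPM in S23DKO, and 429 and 521 CPM in WT. WT day 0 stood above all other libraries, and the other 5 groups overlapped their neighbours in order of level. Replicates differed 6.57-fold in WT day 4, 3.78-fold in S23DKO day 0 and 2.51-fold in S4KO day 0.

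Utf1 was 7.21-fold lower in S23DKO than in WT at day 0 (log2 fold change -2.85 ± 0.80, adjusted p = 0.0214), a call lost without S23DKO day 0 replicate 2 or either WT day 0 library (adjusted p = 0.0698 to 0.119). With the length and GC offsets it was -1.85 ± 0.46 (adjusted p = 0.0115). Utf1 is the shortest of the 5 genes, with 1227 exon bases and 63.5% GC, and WT day 0 is the group in which short genes were raised. No other comparison of Utf1 passed in the edgeR fit to all 12 libraries. S4KO against WT at day 0 was -2.26 ± 0.79 (adjusted p = 0.0645), and -1.22 ± 0.45 with the offsets (adjusted p = 0.0814). It passed in DESeq2 (0.0353), without the low-count filter (0.00294), with a minimum of 1 CPM (0.0481) and with the 2 groups fitted alone (0.0197, adjusted p in each). At day 4 the values were -0.38 ± 0.75 in S4KO (adjusted p = 0.906) and -1.45 ± 0.77 in S23DKO (adjusted p = 0.231). Day 4 against day 0 gave 0.26 ± 0.75 in S4KO, -0.22 ± 0.75 in S23DKO and -1.62 ± 0.77 in WT (adjusted p = 0.871, 0.896 and 0.108), and the WT value was -0.71 ± 0.45 with the offsets (adjusted p = 0.224). The WT value depended on which day 4 library was kept: it was -3.50 without WT day 4 replicate 2 and passed (adjusted p = 0.00610), and -0.91 without replicate 1 (adjusted p = 0.340). It also passed without the low-count filter (-1.65, adjusted p = 0.0115). Without WT day 4 replicate 2 the genotype effect at day 4 minus that at day 0 passed as well, at 3.72 for S4KO (adjusted p = 0.0354) and 3.26 for S23DKO (adjusted p = 0.0333). S4KO against S23DKO at day 4 passed with the 2 groups fitted alone (1.02, adjusted p = 0.0327).

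**Figure D2:**
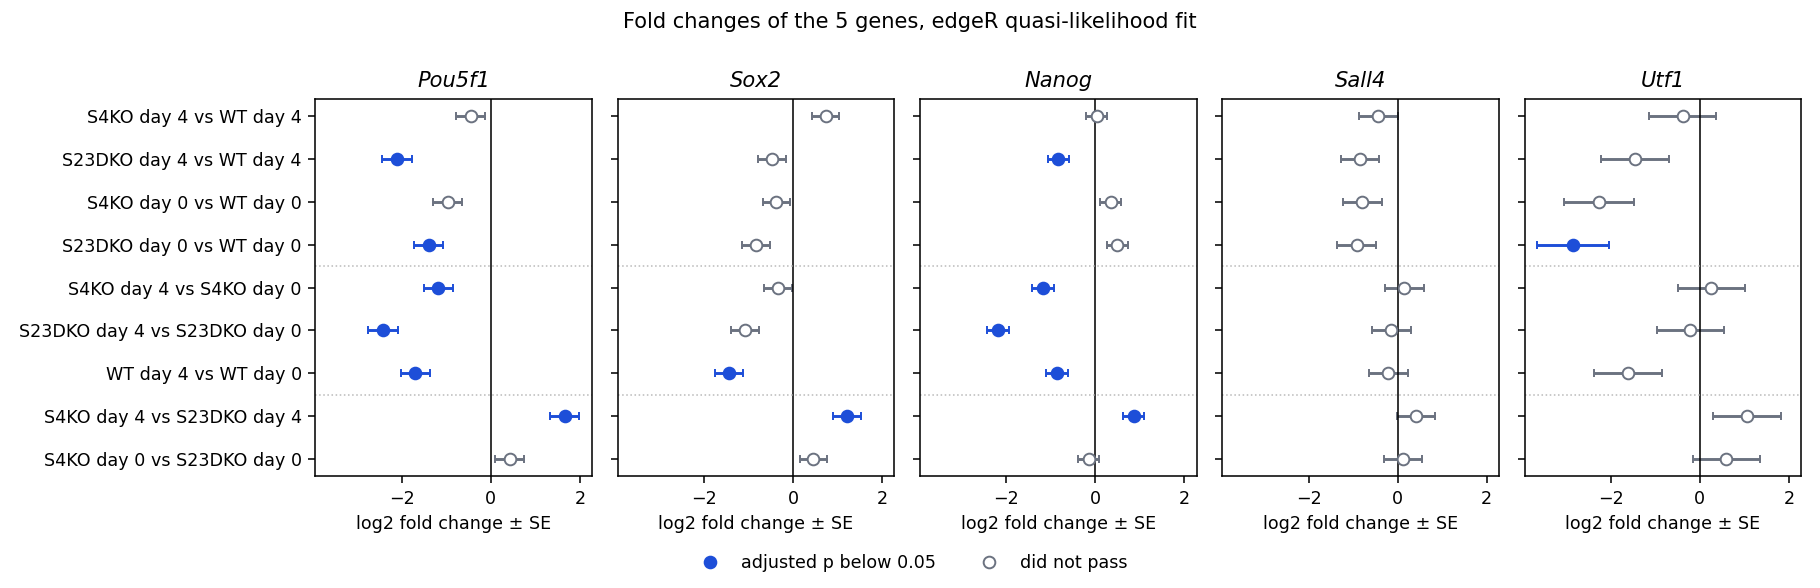
Log2 fold change of each gene (x axis, ± SE from the edgeR fit) in the 9 comparisons of 2 groups (rows), with the first-named group over the second. Filled points passed at an adjusted p below 0.05. The S23DKO day 4 values of Pou5f1 against WT (-2.11) and against S23DKO day 0 (-2.42) lie far from 0, and Sall4 has no filled point.

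The calls were next counted over the 5 genes. At day 4, 2 of 5 genes were lower in S23DKO, where 15.2% of the 18693 genes tested were called and 8.0% were lower, and the median log2 fold change was -0.84 over the 5 genes and -0.03 over all genes. In S4KO at day 4, 0 of 5 passed in edgeR, 1 of them had an unadjusted p below 0.05, and DESeq2 and limma called 0, where 1.73% of all genes were called. At day 0, 2 of 5 were lower in S23DKO (31.0% of genes called, 14.4% lower, medians -0.91 and 0.02). In S4KO at day 0, 0 of 5 passed in edgeR (19.6% of genes called), 2 had an unadjusted p below 0.05 and DESeq2 called those 2, Pou5f1 and Utf1, while limma called 0. The number called there was 1 with RLE scaling and 3 with the 2 groups fitted alone. The 2 knockouts were compared with the same WT libraries, so these counts share their controls.

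Between the days, 2 of 5 genes were lower at day 4 in S4KO (8.90% of genes called, 3.81% lower), 2 of 5 in S23DKO (7.03% called, 3.46% lower) and 3 of 5 in WT (43.6% called, 19.9% lower). The genes called were Pou5f1 and Nanog in each genotype, joined by Sox2 in WT. Sox2 was also called in S23DKO, making 3 of 5, in DESeq2, without the low-count filter, with a minimum of 1 CPM, and with the offsets with or without the replicate block. S4KO against S23DKO gave 3 of 5 higher at day 4 (12.3% called, 5.84% higher) and 0 of 5 at day 0 (5.53% called; 0 at an unadjusted p below 0.05 and 0 in DESeq2 and limma). For the difference in genotype effect between the days, 1 of 5 passed for S23DKO (6.10% called, 4.26% lower) and 0 of 5 for S4KO (0.150% called; 1 at an unadjusted p below 0.05 and 0 in DESeq2 and limma). For the response of S4KO minus that of S23DKO, 0 of 5 passed (0.00535% called; 2 at an unadjusted p below 0.05 and 0 in DESeq2 and limma), so no gene's response was shown to differ between the knockouts.

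**Figure D3:**
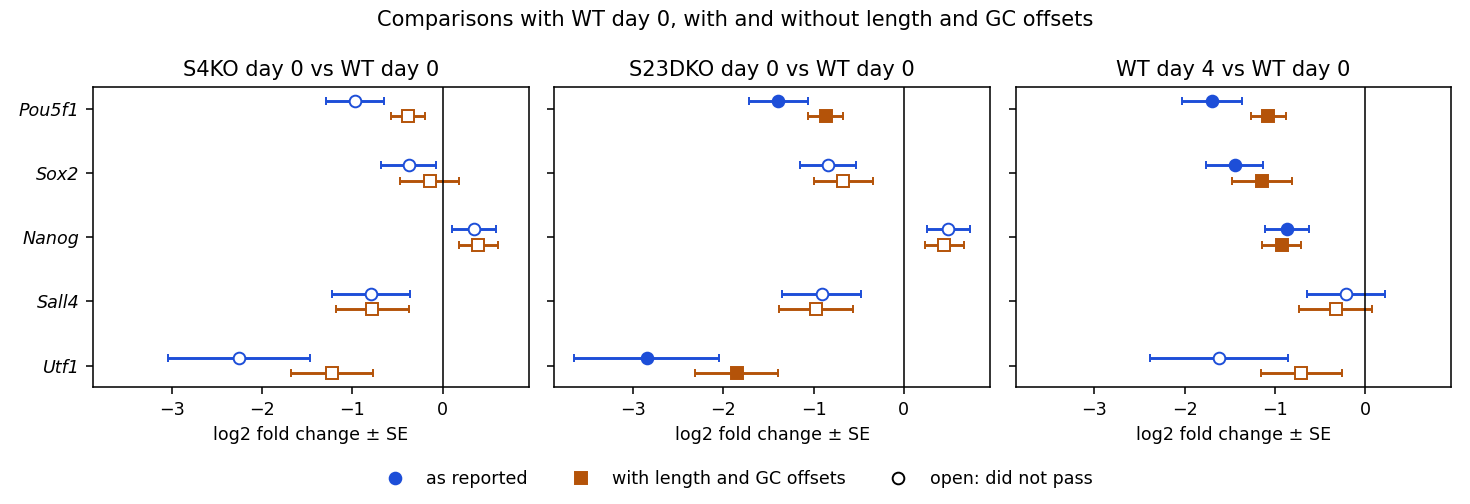
Log2 fold changes (x axis, ± SE) of the 5 genes in the 3 comparisons against WT day 0, as reported (circles) and with length and GC offsets (squares). Filled symbols passed. Pou5f1 and Utf1 move toward 0 with the offsets (for Pou5f1 in S23DKO, -0.87 with them and -1.39 as reported) while Nanog in S23DKO is 0.49 as reported and 0.45 with them.

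The balance between the factors was described by ratios within each library. The ratio of Nanog to Pou5f1 in FPKM was 0.373 and 0.308 in S4KO day 4, 0.600 and 0.608 in S23DKO day 4, and 0.417 and 0.167 in WT day 4. At day 0 it was 0.414 and 0.294 in S4KO, 0.483 and 0.554 in S23DKO, and 0.142 and 0.141 in WT. S23DKO had the highest ratio on each day without overlap, and WT day 0 the lowest of all 6 groups. The ratio of Sox2 to Pou5f1 was 0.375 and 0.464 in S4KO day 4, 0.615 and 0.509 in S23DKO day 4, and 0.287 and 0.131 in WT day 4, with no overlap between the 3 genotypes. At day 0 that ratio was 0.256 and 0.209 in S4KO, 0.270 and 0.164 in S23DKO, and 0.142 and 0.162 in WT. Both ratios have Pou5f1 as denominator. By group means in FPKM, Pou5f1, Nanog and Sox2 were each lowest in S23DKO day 4 (122, 73.7 and 69.2). The high ratios in that group therefore do not reflect high Nanog or Sox2. These ratios are descriptions with no test, and Pou5f1 and Nanog differ in GC content (57.6% and 45.8%), while the WT day 0 libraries carry the trend given above.

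**Figure D4:**
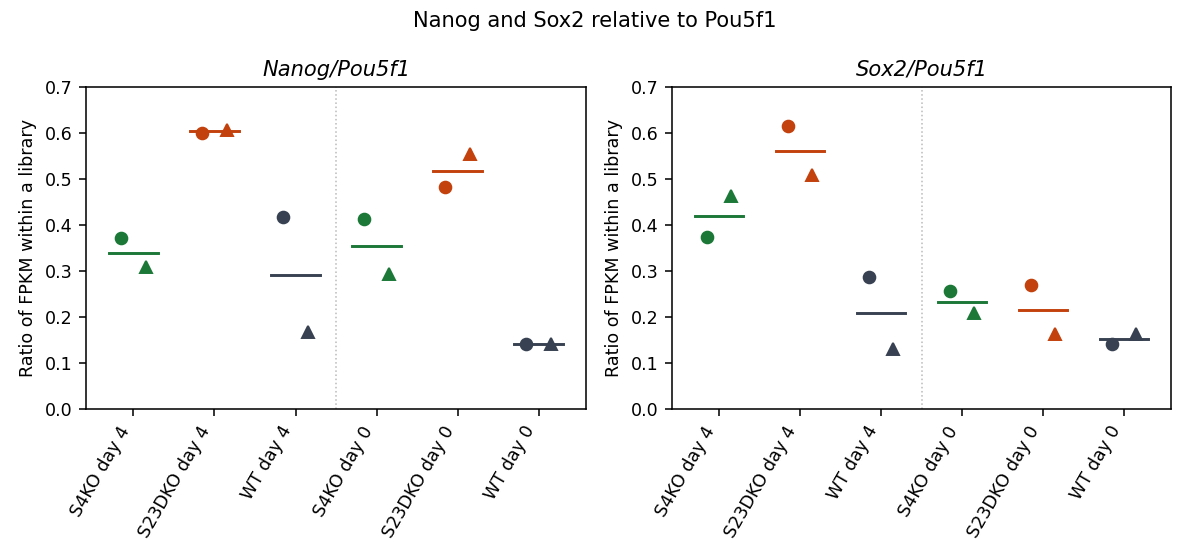
Ratio of Nanog to Pou5f1 (left) and of Sox2 to Pou5f1 (right) in FPKM within each library (y axis from 0), by genotype and day. Circles and triangles are replicates 1 and 2 and lines are means. S23DKO day 4 is the highest group in both panels, with means of 0.604 and 0.562.

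Genes that work with or downstream of the 5 were taken from lists. Of 11 known Oct4 and Sox2 targets, which include 4 of the 5 genes themselves, 4 were lower and 0 higher in S23DKO than in WT at day 4 (8.0% of all genes lower), with a median log2 fold change of -0.48 against -0.03 over all genes. Pou5f1 and Nanog are 2 of those 4, and among the 7 targets outside the 5 genes 2 were lower, Lefty1 and Tdgf1, with a median of 0.11. Lefty1, a Nodal antagonist, had 0.892 and 0.257 CPM in S23DKO day 4 against 41.4 and 111 CPM in WT day 4 (-7.03 ± 0.78, adjusted p = 3.12e-04). Tdgf1, the Nodal co-receptor, was lower as well (-1.84 ± 0.37, adjusted p = 0.00801). In S4KO at day 4, 0 of the 11 were lower and 1 was higher (0.679% of all genes higher), Zfp42 (2.17 ± 0.48, adjusted p = 0.0479), a zinc-finger marker of undifferentiated cells. Over the 4 days, 4 of the 7 targets outside the 5 genes were lower in S4KO (3.81% of all genes lower), 6 in S23DKO (3.46%) and 6 in WT (19.9%), and none was higher.

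Of 13 naive pluripotency factors, 4 were lower at day 4 than at day 0 in S4KO (median -1.37), 8 in S23DKO (median -1.75) and 13 in WT (median -2.67), and none was higher. Over all genes 3.81%, 3.46% and 19.9% were lower in S4KO, S23DKO and WT. In each knockout 11 of the 13 had an unadjusted p below 0.05, and for the genotype effect at day 4 minus that at day 0, 0 of 13 passed in edgeR for either (5 for S4KO and 3 for S23DKO at an unadjusted p below 0.05), so the genotypes were not shown to differ in this. In WT, Klf4, a Krüppel-like factor downstream of LIF, was lower (-4.17 ± 0.68, adjusted p = 9.66e-04), and so was Nr0b1, a nuclear receptor that binds Oct4 (-4.64 ± 0.69, adjusted p = 6.46e-04). At day 4, 2 of the 13 were higher than in WT in each knockout (0.679% of all genes higher in S4KO, 7.21% in S23DKO): Dppa3 in both, Zfp42 in S4KO and Tfcp2l1, a LIF-responsive transcription factor, in S23DKO (1.46 ± 0.36, adjusted p = 0.0209). Against WT at day 4, the median log2 fold change of the 13 was 1.68 in S4KO and 0.80 in S23DKO. In S4KO 11 of them, and in S23DKO 4, had an unadjusted p below 0.05 in edgeR. Dppa3 had 32.0 and 15.6 CPM in S4KO day 4, 21.6 and 16.9 CPM in S23DKO day 4 and 7.36 and 6.82 CPM in WT day 4.

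Of 13 formative and primed factors, which follow the naive state in the epiblast, 12 were lower in S23DKO than in WT at day 4 (median -2.74; 8.0% of all genes lower) and 0 of 13 passed in S4KO (median -1.40; 1.73% of all genes called), where 7 had an unadjusted p below 0.05 in edgeR, DESeq2 called 5 and limma called 2. The S4KO day 4 libraries stood apart from each other here: formative and primed factors summed to 806 CPM in replicate 1 and 1629 CPM in replicate 2, and naive factors to 1571 and 672 CPM. Fgf5, a growth factor of the primed epiblast, had 8.84 and 98.9 CPM in S4KO day 4, 2.77 and 2.80 CPM in S23DKO day 4, and 189 and 167 CPM in WT day 4. Over the 4 days 7 of the 13 were higher and 1 lower in S4KO, 0 higher and 2 lower in S23DKO, and 10 higher and 1 lower in WT, where 5.08%, 3.57% and 23.8% of all genes were higher. Among 20 partners shared by both states, 5 were lower in S23DKO than in WT at day 4 (8.0% of all genes lower), led by Foxd3 (-3.53 ± 0.64, adjusted p = 0.00453) and Lin28b, a let-7 regulator (-2.56 ± 0.42, adjusted p = 0.00265). In S4KO at day 4 the single call among the 20 was Gdf3, a TGF-beta family ligand, which was higher (1.38 ± 0.30, adjusted p = 0.0459).

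Values for relatives of 3 of the genes, the Sall, Sox and POU families, are given next. Sall1 had 308 and 313 CPM in S4KO day 4, 128 and 129.9 CPM in S23DKO day 4, and 151 and 207 CPM in WT day 4, and it passed in no comparison of a knockout with WT. Sall2 had 18.1 and 79.8 CPM in S4KO day 4, 15.8 and 15.9 CPM in S23DKO day 4, and 136 and 167 CPM in WT day 4. It was lower in S23DKO than in WT at day 4 (-3.26 ± 0.62, adjusted p = 0.00613), as was Sall3 (-4.25 ± 0.77, adjusted p = 0.00449), whereas both rose over the 4 days in WT. Of 12 other Sox genes, 3 were lower in S23DKO than in WT at day 4 (8.0% of all genes lower), among them Sox3 (-4.56 ± 0.76, adjusted p = 0.00291), a close relative of Sox2. In S4KO at day 4, Sox1, a marker of neural progenitors, was higher than in WT, with 7.78 and 24.4 CPM against 0.572 and 0.345 CPM (5.12 ± 0.65, adjusted p = 0.00358), while Sox7 and Sox17, both endoderm factors, were lower. Of 9 other POU genes, 0 passed in edgeR in S4KO at day 4 (5 at an unadjusted p below 0.05, 2 in DESeq2), and 1 in S23DKO (15.2% of all genes called), Pou2f3, which was higher (1.56 ± 0.34, adjusted p = 0.0109).

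Markers of other cell types were counted in the same way. Of 12 trophectoderm markers, 10 were higher and 1 lower in S23DKO than in WT at day 4 (7.21% of all genes higher), and 9 were higher at day 0 (16.7% of all genes higher). Their summed level was 175 and 376 CPM in S4KO day 4, 2549 and 3053 CPM in S23DKO day 4, and 499.8 and 694 CPM in WT day 4. At day 0 it was 86.7 and 141 CPM in S4KO, 747 and 1143 CPM in S23DKO, and 244 and 232 CPM in WT. By group means, the largest share was Krt18 in S23DKO day 4 (38.0%), Krt8 in S23DKO day 0 (42.4%) and Eomes in WT day 4 (41.1%). Gata3, a trophectoderm transcription factor, had 38.1 and 29.8 CPM in S23DKO day 4 against 0.701 and 0.939 CPM in WT day 4. Cdx2, which represses Oct4 in the trophectoderm and was named after its values were seen, stayed low at 2.05 and 1.78 CPM in S23DKO day 4 and 1.11 and 1.78 CPM in WT day 4, and Elf5 was at most 2.77 CPM in every library. The 1 lower marker was Eomes, which the primitive streak list also holds. The part of these cells in the Pou5f1 and Nanog values was not tested.

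All 10 primitive streak markers were lower than in WT at day 4 in both knockouts (1.05% of all genes lower in S4KO, 8.0% in S23DKO), with sums of 15.7 and 28.3 CPM in S4KO, 9.73 and 8.05 CPM in S23DKO and 525 and 623 CPM in WT. Of 12 extraembryonic endoderm markers, 8 were lower in S4KO and 4 in S23DKO than in WT at day 4. Their sums were 121 and 191 CPM in S4KO, 731 and 547 CPM in S23DKO and 656 and 881 CPM in WT. By group means, Col4a1 alone made up 69.9% of the sum in S4KO, 78.5% in S23DKO and 37.4% in WT. At day 0 Col4a1 made up 65.5%, 80.4% and 68.8% in the same order. At day 0, 6 of the 12 were higher in S4KO and 8 in S23DKO than in WT and 0 were lower (medians 1.29 and 2.50; 19.6% of all genes called in S4KO, 16.7% higher in S23DKO), with sums of 51.8 and 67.4 CPM in S4KO, 195 and 269 CPM in S23DKO and 23.01 and 30.3 CPM in WT, while Afp and Ttr were below 0.1 CPM in each group. Of 8 neural markers tested, 3 were higher in S4KO than in WT on each day and 1 was lower in S23DKO on each day. Over all genes, 0.679% were higher in S4KO at day 4, and 19.6% were called in either direction at day 0. In S23DKO, 8.0% of all genes were lower at day 4 and 14.4% at day 0. The 9 listed neural markers summed at day 4 to 124 and 198 CPM in S4KO, 50.2 and 50.5 CPM in S23DKO and 159 and 168 CPM in WT. At day 0 they summed to 171 and 163 CPM in S4KO, 66.2 and 34.6 CPM in S23DKO and 94.2 and 122 CPM in WT. By group means at day 4, Nes alone made up 43.7% of the sum in S4KO, 44.8% in S23DKO and 84.4% in WT. The median log2 fold change of the 8 tested against WT at day 4 was 2.28 in S4KO and 0.60 in S23DKO. Fibroblast markers summed to at most 29.8 CPM in any library. The 7 defining markers of ES cells include Pou5f1, Sox2 and Nanog. The other 4 (Klf4, Zfp42, Esrrb and Dppa5a) were above 0.1 CPM in each day 0 group. They summed to 3022 and 3214 CPM in S4KO, 2459.8 and 1779 CPM in S23DKO, and 5157 and 3967 CPM in WT. Of these 4, Dppa5a alone was called at day 0, lower than in WT in both knockouts (9.14% of all genes lower in S4KO, 14.4% in S23DKO). The median log2 fold change of the 4 was 0.51 in S4KO and -0.41 in S23DKO. By group means, Dppa5a made up 43.2% of the WT day 0 sum of all 7 markers. The part of these markers in the values of the 5 genes was not tested.

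**Figure D5:**
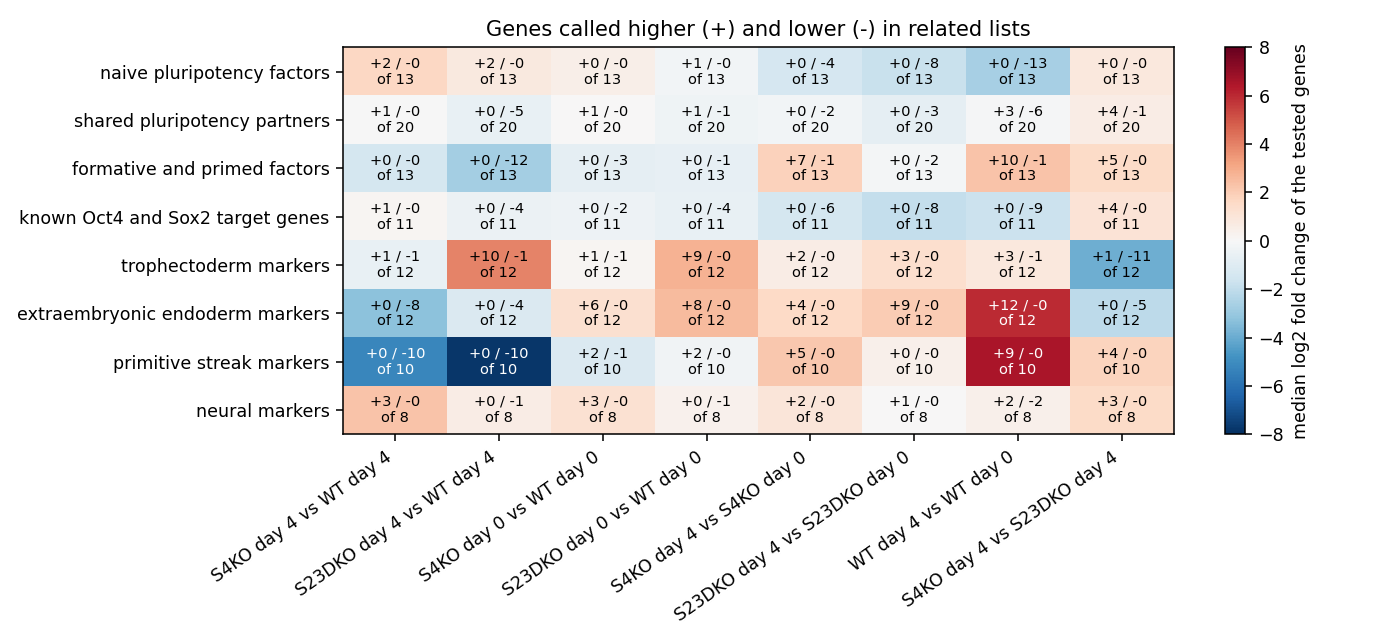
Numbers of genes called higher (+) and lower (-) of those tested in 8 related lists (rows) and 8 comparisons (columns), coloured by the median log2 fold change of the list. Formative and primed factors show 12 of 13 lower in S23DKO against WT at day 4, beside 10 of 12 trophectoderm markers higher.

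The genes whose log2 CPM followed each of the 5 most closely over the 12 libraries were taken from the 11165 named genes that averaged 5 CPM or more. For Pou5f1 they were Lsg1, Nptx2 and Cnp (Pearson r = 0.968, 0.967 and 0.967, Spearman rho = 0.937, 0.979 and 0.958). For Sox2 they were Bdh2, Pla2g5 and Lta4h (Pearson r = 0.966, 0.955 and 0.949, Spearman rho = 0.972, 0.909 and 0.881). For Nanog they were Prps1, Fig4 and Coil (Pearson r = 0.959, 0.947 and 0.947, Spearman rho = 0.825, 0.937 and 0.923). For Sall4 they were Gpatch4, Nrf1 and Rbm10 (Pearson r = 0.955, 0.938 and 0.922, Spearman rho = 0.958, 0.895 and 0.769). For Utf1 they were Adck5, Wdr89 and Snrpb (Pearson r = 0.989, 0.981 and 0.976, Spearman rho = 0.986, 0.993 and 0.972). Adck5 had the same extremes as Utf1 within groups, with 9.53 and 22.97 CPM in WT day 4 and 15.3 and 8.51 CPM in S23DKO day 0. With log2(FPKM + 1) in place of log2 CPM, Cnp, Bdh2, Pla2g5, Prps1, Gpatch4, Adck5 and Wdr89 stayed among the 3 nearest genes. These r describe 12 points in 6 groups that share the WT day 0 length trend, and they carry no test.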

How the data were processed

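Counts per gene and FPKM values were deposited by the authors for all 12 libraries. The labels describe TruSeq v2 libraries, whose standard kit does not mark strand, from RNA of high integrity. The submitters' processing notes name mm10, StringTie, Cufflinks and DESeq2 without roles or versions, with the aligner, annotation and strand setting not given in the sources used here. Deposited counts were analysed with edgeR 4.0.16 (R 4.3.3; TMM scaling, filterByExpr, 1 quasi-likelihood fit over the 6 groups) for 18693 genes. P-values were adjusted by Benjamini-Hochberg over all genes tested in each of 12 comparisons, and an adjusted p below 0.05 was a call. SE is the log2 fold change divided by the root of its F statistic. The FPKM deposited by the authors were used for levels between genes and, as log2(FPKM + 1) or log2(FPKM + 0.1), in limma 3.58.1. Alternatives were DESeq2 1.42.0, other scaling and filters, offsets for length and GC content (splines with 5 df, 18682 genes), a replicate block, fits of the compared groups alone, a minimum log2 change of 1, and leaving out each library. The edgeR, DESeq2 and limma fits were run on simulated counts for the comparison of S23DKO with WT at day 0 alone. The offsets, the replicate block, the differences between days and the list counts were not tested in that way.

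Replicate numbers came from the labels. Over 15 pairs of groups, deviations of same-numbered libraries correlated at -0.260 to 0.574 and exceeded 0.1 in 2, so the numbers were not taken to pair the libraries. The 5 genes, the 13 lists and the rules were chosen with earlier results of these data known. Named genes were the 5, the 3 most correlated named genes for each (mean of at least 5 CPM, log2 CPM with a prior count of 2), and up to 4 called genes of each list with the largest change, beside Hprt and the Smad genes. Promoters came from RefSeq, and tables and figures were made with Python 3.11.15, pandas 2.3.3 and matplotlib 3.10.9.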

Additional observations from a re-analysis of the deposited data

Results flagged for a closer look

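The effect of S23DKO on Nanog differed between the days by test: at day 4 minus day 0 it was -1.32 ± 0.34 on the log2 scale (edgeR, adjusted p = 0.0463). Nanog was below WT in both S23DKO libraries at day 4 (164 and 137 CPM against 290.0 and 245 CPM) and above WT in both at day 0 (729 and 644 CPM against 479.7 and 495 CPM). The day 0 difference alone did not pass (0.49 ± 0.24, edgeR, adjusted p = 0.139). The call for the difference between the days was lost under 8 of 20 alternatives. Among them was leaving out any 1 of the 8 WT and S23DKO libraries other than WT day 4 replicate 2.

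The values of Sox2 in S4KO lay on opposite sides of WT on the 2 days, above it in both libraries at day 4 (323 and 287 CPM against 187 and 179 CPM) and below it in both at day 0 (371 and 397 CPM against 466 and 533 CPM). The day 0 separation held in CPM and not in FPKM (174 and 192 in S4KO, 188 and 233 in WT), and with the length and GC offsets the day 0 difference was -0.15 ± 0.33 (edgeR, adjusted p = 0.799). The difference, 1.11 ± 0.44, did not pass (edgeR, adjusted p = 0.178).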

How the results depend on the processing

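Of 1020 values of the 5 genes recomputed under the alternatives, 895 kept direction and call, 56 lost a call, 33 gained one and 36 changed sign. Counts of called genes in the lists were recomputed as well, except with libraries left out. Of these 1404 counts, 1077 were unchanged or within 1.5-fold, and the others moved further. Except where a construction is named, the cause was not tested. Each group had 2 libraries of at least 31566376 counts.

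The count of the 5 genes called in S23DKO against WT at day 0 (2) was 4 without the low-count filter, 3 in DESeq2 and 0 with limma on unfiltered FPKM. In S4KO against WT at day 0 (0) it was 1 with RLE scaling, 2 in DESeq2, 2 unfiltered, 2 with a minimum of 1 CPM in 2 libraries and 3 with the 2 groups alone. In S23DKO against WT at day 4 (2) it was 1 with RLE scaling, the 3 limma fits, the 2 groups alone and the minimum change of 1. In S4KO over the days (2) it was 1 with unfiltered limma and 0 with the groups alone. In S4KO against S23DKO at day 4 (3) it was 1 with unfiltered limma. For the S23DKO effect between the days (1) it was 0 with unfiltered limma and 2 with length and GC offsets.

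Replicate numbers were not taken to pair the libraries, and the correlations given above cannot exclude a pairing. With the replicate block, 1 gene was called in S4KO over the days and 3 in S23DKO against WT at day 0, and with the block and the offsets 2 were called for the S23DKO effect between the days.

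Leaving out 1 library at a time gave 0 to 4 genes called in S23DKO and 0 to 0 in S4KO against WT at day 0, and 1 to 2 and 0 to 0 at day 4. It gave 0 to 2 in S4KO, 0 to 3 in S23DKO and 2 to 3 in WT over the days. S4KO against S23DKO gave 0 to 2 on each day. The effect between days gave 0 to 2 for S23DKO and 0 to 1 for S4KO, and the difference in response 0 to 0.

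No value that changed sign was a call. Ranges below run over the fits that each leave out 1 library. Without WT day 4 replicate 2, at day 4 against WT, Utf1 was 0.42 in S23DKO (range from -2.17) and 1.46 in S4KO (from -1.14), Pou5f1 in S4KO was 0.11 (from -0.84) and Nanog in S4KO was -0.15. Nanog there was -0.0070 unfiltered and -0.40 without S4KO day 4 replicate 1 (range up to 0.39), and Utf1 was 0.17 to 0.18 in limma. Over the days limma gave Sall4 0.020 in WT and 0.19 to 0.20 in S23DKO, and Utf1 0.12 to 0.13 in S23DKO. Without S23DKO day 0 replicate 1, the S23DKO change was 1.02 for Sall4 and 1.02 for Utf1, and the difference in response was -0.90 and -0.79. Utf1 was 0.029 in S23DKO without day 4 replicate 2, and without S4KO day 0 replicate 1 it was -0.29 in S4KO (up to 1.01), with a difference in response of -0.053. The ranges of the difference in response reached 0.90 for Sall4 and 1.25 for Utf1. In S4KO against S23DKO at day 0, without S23DKO replicate 2, Sall4 was -0.53 (up to 1.28) and Utf1 -0.085 (up to 1.82), and without S4KO replicate 2 Utf1 was -0.22. For the S23DKO effect between days, Sox2 was -0.080 (up to 1.05) and Sall4 -0.56 (up to 1.29) without S23DKO day 0 replicate 2, and Sall4 was -0.11, -0.12 and -0.081 without WT day 0 replicate 1, WT day 4 replicate 1 and S23DKO day 4 replicate 1. For S4KO, Pou5f1 was -0.053 with the offsets and -0.063 with block and offsets, and Nanog 0.047 without S4KO day 4 replicate 2 (from -0.74).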

Other observations

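The ratio of Sall4 to Pou5f1 in FPKM was 0.0898 and 0.139 in S4KO day 4, 0.260 and 0.258 in S23DKO day 4, and 0.136 and 0.0961 in WT day 4. At day 0 it was 0.0513 and 0.0366 in S4KO, 0.0733 and 0.0271 in S23DKO, and 0.0428 and 0.0335 in WT. The ratio was above its day 0 values in every genotype at day 4, and highest in S23DKO day 4, without overlap. By group means in FPKM, Pou5f1 and Sall4 were each lowest in S23DKO day 4 (122 and 31.6).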
